A study of Homo sapiens with 2 samples.

Results

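The proteasome subunit genes are the genes named PSMA to PSMG with a number, together with the regulators and assembly factors that carry the same stem. They were taken from the deposited count table by their gene names, and 45 of the 48 in the table, of 56303 genes in all, had at least 20 reads in both libraries together. The data came from HUH7, a human hepatocellular carcinoma cell line, as 1 library of RNA precipitated from cell lysate with an antibody against ZMAT2 (the IP) and 1 library of unfractionated lysate RNA (Input). ZMAT2 is a zinc-finger protein of the spliceosome, and the series asks whether it acts on this cancer through its role in splicing. Neither group carried a genetic change or a treatment in the labels, and 80% of the lysate went into the precipitation and 10% into Input. A rabbit IgG precipitation is described as the negative control and was not analysed here, so no ratio of IP to Input here can be read as binding.

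The proteasome is the protease that degrades most proteins tagged with ubiquitin in the nucleus and cytosol. Its 20S core is a barrel of stacked rings, with alpha subunits (PSMA genes) at the ends that gate entry and beta subunits (PSMB genes) in the middle, some of which cut the substrate. The 19S particle caps the barrel: its base holds a ring of ATPases (PSMC genes) that unfold substrates and receptors that bind ubiquitin, and its lid (most PSMD genes) removes the ubiquitin chain. Other caps (PSME genes) open the core without ubiquitin, and dedicated chaperones (PSMG genes and some PSMD genes) help assemble the parts. Subunit genes are expressed in nearly all cells, and liver cells carry abundant proteasomes.

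Reads in genes came to 25047635 for the IP and 23485789 for Input. All 10 hepatocyte and hepatoma markers examined had at least 20 reads, from 2086 and 2387 reads for TTR to 117214 and 170426 for ALB in the IP and Input. Of the markers of other cell types, 3 of 7 immune, 2 of 5 endothelial and 3 of 6 fibroblast and stellate genes reached 20 reads. PTPRC, the pan-leukocyte surface gene, had 0 IP reads and 1 Input read, and CDH5, COL1A1 and DCN had none, whereas the lysozyme gene LYZ had 6011 and 8837. Together the hepatocyte markers summed to 15899 CPM in the IP and 22194 in Input (CPM, reads scaled by TMM library size), the immune markers to 259 and 372, the endothelial to 11.2 and 14.6 and the fibroblast to 7.42 and 5.96. The part of cell markers in the ratios was not tested. Of the study's named genes, ZMAT2 had 36553 IP reads against 5187 Input reads, and TRIM28 had 4800 against 2215. As each group is 1 library, no difference has a replicate check. Each interval below is the 95% exact (Clopper-Pearson) interval of a gene's IP share of reads, turned into a log2 ratio of IP over Input. It covers counting error only, and since reads are not independent molecules and both mates of a pair seem to be in the counts, intervals on read pairs are given where they change what can be said.

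Proteasome mRNAs stood close to their Input level in the ZMAT2 IP. The 45 genes together took 186802 IP reads and 173973 Input reads, which is 0.746% and 0.741% of the reads in genes. After scaling by TMM (the trimmed mean of ratios, which sets the bulk of genes near 0), the log2 ratio had a median of 0.11 and an SD of 0.36 over the 45 genes. The median of all 17915 genes with at least 20 reads was 0.0059 and their SD was 0.83, though most of these genes had far fewer reads. The nearest comparison in depth is the 6589 protein-coding genes with 1000 or more reads, whose SD was 0.57, against 0.31 for the 41 proteasome genes with as many reads. Within 1.5-fold lay 95.1% of those 41 genes and 71.3% of the 6589.

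None of the 45 genes was called higher in the IP, where a call needs a ratio of at least 2-fold and an interval that excludes 0, while 7.41% of all genes were. One was called lower, PSMB8, against 6.96% of all genes. At 1.5-fold the ATPase genes PSMC3 and PSMC4 were called higher, where 17.8% of all genes were, and PSMB8 was again called lower, where 16.0% were. Of the 6589 protein-coding genes with 1000 or more reads, 261 were called higher at 2-fold and 172 lower. At 1.5-fold 994 of them were called higher and 896 lower. Of the 45 genes, 24 had an interval above 0, 12 below 0 and 9 across 0, and on read pairs these numbers were 22, 9 and 14. At 1000 or more reads the interval lay above 0 for 58.5% of the 41 proteasome genes and below 0 for 22%, against 41.3% and 44.1% of the 6589 protein-coding genes. Over all 17915 genes the shares were 33.3% and 32.5%. On read pairs 4968 of these 17915 had an interval above 0, 4693 below it and 8254 across it. The side of 0 depends on the scaling: 27 genes lay above 0 and 18 below with TMM, and 23 and 22 with library totals, a scaling that lowered the median of all genes by 0.11. With library totals 16 intervals lay above 0, 18 below and 11 across it. The shares over all genes were not computed at that scaling. PSMA5, PSMA6, PSMB1, PSMB6, PSMD6, PSMD10, PSMD14 and PSMF1 then include 0, and PSMA2, PSMC1, PSMC6, PSMD7, PSME1 and PSME3 then lie below it. The proteasome median exceeded the median of all genes by 0.11, a difference that a change of scaling cannot alter.

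**Figure D1:**
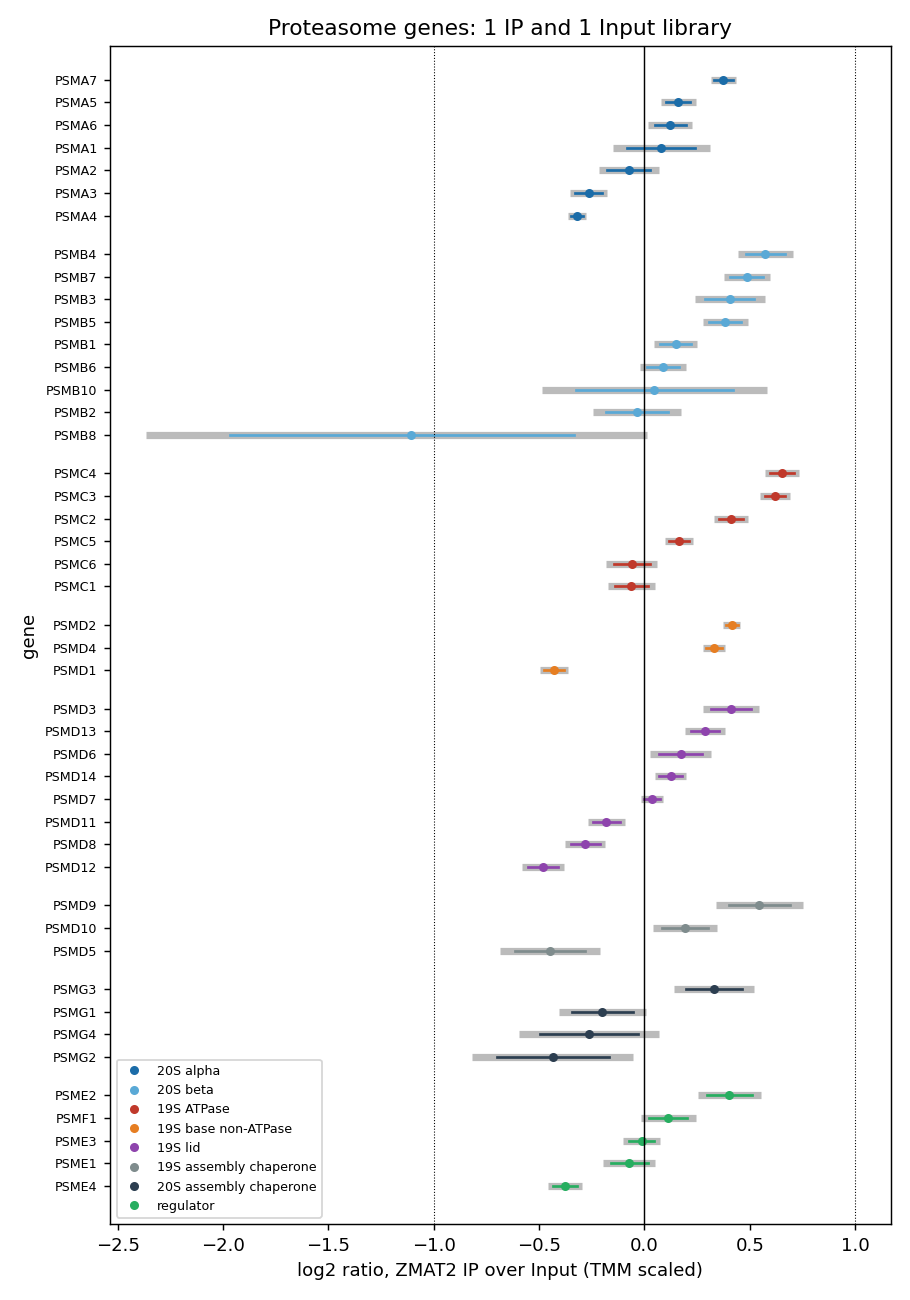
The log2 ratio of ZMAT2 IP over Input (x axis) for the 45 proteasome genes (y axis), grouped and coloured by role, with 95% counting intervals on reads (thin coloured lines) and on read pairs (wide grey lines) and dotted lines at 2-fold. The genes spread to both sides of 0 in each of the 8 groups, 44 of them inside the 2-fold lines, and PSMB8 stands apart with the widest interval.

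Among the alpha subunits, which form the outer rings and the gate of the core, PSMA7 had the highest ratio and PSMA4 the lowest. PSMA7 on chromosome 20 (62136735 to 62143440, GRCh38) drew 9792 IP reads against 7615 Input reads. That is 406.0 CPM against 313.0, which gives a log2 ratio of 0.38 (0.33 to 0.42), or 1.30-fold. PSMA4 on chromosome 15 (78540405 to 78552419) was the alpha gene with the most reads, 16421 IP reads against 20666 Input reads. Its level was 680.8 CPM against 849.4, and its log2 ratio -0.32 (-0.35 to -0.29). The libraries thus differed in opposite directions for these neighbours in 1 ring. PSMA3 was lower too, with 3695 and 4479 reads and a log2 ratio of -0.26 (-0.33 to -0.20). PSMA5, with 4989 and 4503 reads, stood at 0.16, and PSMA6, with 3093 and 2866, at 0.12. Both intervals lay above 0. PSMA1 (651 and 621 reads) and PSMA2 (1560 and 1657) had intervals that included 0. PSMA8, which replaces an alpha subunit in the testis form of the core, had no read in either library, which allows up to 3 reads, or 0.124 CPM in the IP and 0.123 in Input. The median of the 7 alpha genes was 0.08.

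The beta subunits that carry the catalytic sites of the standard core are PSMB5 (chymotrypsin-like), PSMB6 (caspase-like) and PSMB7 (trypsin-like). PSMB5, at 3295 IP reads against 2549 Input reads, stood at 0.38 (0.31 to 0.46). PSMB7, at 3266 against 2354, stood at 0.48 (0.41 to 0.56). PSMB6 had 2751 and 2610 reads and stood at 0.09, with an interval on read pairs that included 0. Of the structural beta subunits, PSMB4 on chromosome 1 (151399534 to 151401944), with 2340 and 1586 reads or 97.02 and 65.18 CPM, had the highest log2 ratio of all PSMB genes at 0.57 (0.48 to 0.67), or 1.49-fold. PSMB3 followed at 0.40 with 1391 and 1060 reads, and PSMB1 at 0.15 with 3263 and 2971. PSMB2, with 742 and 767 reads, had an interval across 0. For these 7 constitutive genes the median log2 ratio was 0.38, 6 of them lay above 0, and none had an interval below 0. Of the 6589 protein-coding genes with 1000 or more reads, 3144 lay above 0 and 44.1% had an interval below 0.

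Replacement beta subunits make up the immunoproteasome, which interferon induces and which produces peptides for antigen presentation. They had few reads in HUH7. PSMB8 (chromosome 6, 32840717 to 32844703) had 20 IP reads against 44 Input reads, or 0.829 CPM against 1.81, and 21.2% of its exon bases lie in PSMB8-AS1. Its log2 ratio was -1.11 (-1.97 to -0.33), or 0.465-fold, and on read pairs the interval ran from -2.37 to 0.01 and so included 0. The 1 call among the proteasome genes therefore does not hold when mates are counted together, nor with a prior count of 5. PSMB8 was also the kept gene nearest to the minimum of 20 reads, with 64 reads in all, and PSMB9 and PSMB11 were the nearest below it. PSMB10, with 124 and 121 reads, stood at 0.05 (-0.33 to 0.42). PSMB9 had 0 IP reads and 2 Input reads, as did PSMB11, the thymus form, and neither count can be told from 0 or 3 reads. The 9 beta genes with enough reads had a median of 0.15.

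The 6 ATPases of the base unfold the substrate and drive it into the core, and their genes held the highest ratios of the family. PSMC4 on chromosome 19 (39971005 to 39981441) drew 6279 IP reads against 4026 Input reads. At 260.3 CPM against 165.5 its log2 ratio was 0.65 (0.60 to 0.71), or 1.57-fold. PSMC3 on chromosome 11 (47418769 to 47426473) had the most reads of the ATPases, 8556 against 5616, and stood at 0.62 (0.57 to 0.67), or 1.54-fold. PSMC2 stood at 0.41 (0.35 to 0.47) with 5517 and 4184 reads, and PSMC5 at 0.16 (0.12 to 0.21) with 7488 and 6745. PSMC6 (2168 and 2281 reads) and PSMC1 (2586 and 2724) both stood at -0.06 with intervals that included 0. PSMC1, the lowest, had 107 CPM in the IP and 112 in Input. The ring thus held 3 genes at or above 0.41 and 2 whose intervals included 0 with TMM and lay below 0 with library totals, and its median was 0.29. Values for PSMC1 are uncertain, since 75.8% of its exon bases also lie in exons of NRDE2 on the opposite strand, which had 2021 and 2142 reads.

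ATPases join the ring as dimers, so the genes of each dimer were set against each other. The difference of 2 log2 ratios from the same pair of libraries does not depend on the scaling, and its interval is the exact conditional one for a table of 4 counts. PSMC3 exceeded its partner PSMC6 by 0.68 (0.58 to 0.78). PSMC4 exceeded PSMC5 by 0.49 (0.42 to 0.57), and PSMC2 exceeded PSMC1 by 0.47 (0.38 to 0.57). The last is affected by the overlap of PSMC1 with NRDE2. PSMC5 has an overlap too, since exons of FTSJ3 on the opposite strand, with 7075 and 6443 reads, cover 19.5% of its exon bases. The intervals of all 3 differences excluded 0 on read pairs too, so partners in a dimer differed by more than counting error. Over the 6589 protein-coding genes with 1000 or more reads the SD of the log2 ratio was 0.57. Only 14.6% of those genes had an interval across 0. Differences between unrelated genes were not computed, so nothing here is shown to be particular to dimers. In all 9 pairs of related genes were compared, chosen from textbook structure with values known. The others are the dimers described below and, in the core, the immune forms PSMB8 and PSMB10, each with the constitutive subunit it replaces. PSMB9 was not compared. PSMB5 exceeded PSMB8 by 1.51 (0.71 to 2.35, and 0.36 to 2.76 on read pairs), and PSMB7 exceeded PSMB10 by 0.44 (0.06 to 0.82), where the interval on read pairs included 0. Exons of another gene on the same strand, with 160 and 148 reads, cover 34.8% of the PSMB10 exon bases.

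The non-ATPase subunits of the base are its scaffolds and a ubiquitin receptor. PSMD2, a scaffold on chromosome 3 (184298709 to 184309054), had the most reads of any proteasome gene, 23063 IP reads against 17459 Input reads. Its level was 956.2 CPM against 717.5, and its log2 ratio 0.41 (0.39 to 0.44). PSMD4, which encodes the receptor, stood at 0.33 (0.29 to 0.37) with 13227 and 10605 reads. PSMD1, the other scaffold, went the other way, with 6011 and 8164 reads or 249 and 336 CPM, and stood at -0.43 (-0.48 to -0.38), or 0.743-fold. Exons of HTR2B, which had 2 and 25 reads, cover 10.8% of the PSMD1 exon bases.

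Lid subunits lay on both sides of 0. Of the structural lid genes PSMD3 was the highest, with 2109 and 1601 reads or 87.4 and 65.8 CPM, and stood at 0.41 (0.32 to 0.50). PSMD13 stood at 0.29 with 3949 and 3261 reads, and PSMD6 at 0.17 with 1654 and 1481. PSMD14 encodes the metalloprotease that cuts off the ubiquitin chain and stood at 0.12 (0.07 to 0.18) with 5968 and 5522 reads. Its inactive partner in the lid is PSMD7, the lid gene with the most reads, 11282 and 11093, with an interval that included 0 and 30.7% of its exon bases in another gene. The pair differed by 0.09 (0.02 to 0.15), and on read pairs that interval included 0. The lid genes with intervals below 0 were 3, all structural: PSMD11 at -0.18 (3807 and 4351 reads), PSMD8 at -0.28 (3300 and 4041) and PSMD12 at -0.48 (-0.55 to -0.41). PSMD12 on chromosome 17 (67337916 to 67366627), with 2805 and 3947 reads or 116.3 and 162.2 CPM, was the lowest proteasome gene after PSMB8. The median of the 8 lid genes was 0.08, and it became -0.02 with library totals.

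Base assembly uses the chaperones PSMD5, PSMD9 and PSMD10, each of which holds 1 of the ATPase dimers. PSMD9, which binds the dimer of PSMC3 and PSMC6, had 971 and 671 reads, or 40.3 and 27.6 CPM, and stood at 0.55 (0.40 to 0.69), with 19.9% of its exon bases in other genes. PSMD10 (gankyrin), which binds PSMC4 and is described as an oncoprotein of liver cancer, stood at 0.19 (0.09 to 0.30) with 1508 and 1331 reads. PSMD5, which binds PSMC2 and PSMC1, had 514 and 707 reads, or 21.3 and 29.1 CPM, and stood at -0.45 (-0.61 to -0.28). The chaperones of the core act as dimers of PSMG1 with PSMG2 and of PSMG3 with PSMG4. PSMG3 stood at 0.33 (0.20 to 0.46) with 1030 and 826 reads (42.7 and 33.9 CPM) and exceeded PSMG4, with 280 and 339, by 0.59 (0.32 to 0.86). PSMG1 had 722 and 836 reads and a ratio of -0.20, and PSMG2 had 204 and 278, or 8.46 and 11.4 CPM, and stood at -0.43 (-0.70 to -0.17). Their difference of 0.23 had an interval that included 0. On read pairs only PSMG2 of the 3 lower PSMG genes kept an interval below 0, and the median of the 4 was -0.23.

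Regulators that cap or inhibit the core were centred on 0, with a median of -0.01. PSME1 and PSME2 lie next to each other on chromosome 14 and encode the subunits of 1 activator ring, which interferon induces. PSME1 had 2049 and 2174 reads and an interval across 0, whereas PSME2 had 1704 and 1299 reads, or 70.6 and 53.4 CPM, and stood at 0.40 (0.30 to 0.51). PSME1 was lower than PSME2 by a log2 difference of -0.48 (-0.61 to -0.34), and -0.67 to -0.28 on read pairs. RNF31, with 888 and 370 reads, covers 6.03% of the PSME2 exon bases. PSME3, the nuclear activator, had 4332 and 4411 reads and a ratio of -0.01. PSME4 on chromosome 2 encodes a large nuclear activator with a known role in histone degradation, and stood at -0.38 (-0.43 to -0.32), with 4328 and 5667 reads or 179 and 233 CPM. PSMF1, named as an inhibitor of the core, had 1998 and 1864 reads and a ratio of 0.11, with an interval on pairs that included 0.

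Set side by side, the role groups overlapped. From highest to lowest, the median log2 ratio was 0.33 for the 3 non-ATPase base subunits, 0.29 for the 6 ATPases, 0.19 for the 3 base chaperones, 0.15 for the beta subunits, 0.08 for the lid and for the alpha subunits, -0.01 for the regulators and -0.23 for the core chaperones. Within the groups the ratios ranged from -0.06 to 0.65 for the ATPases, from -0.48 to 0.41 for the lid and from -0.32 to 0.38 for the alpha subunits. They ranged from -0.43 to 0.41 for the non-ATPase base subunits and from -1.11 to 0.57 for the beta subunits. The order depends on membership, since the beta median was 0.38 for PSMB1 to PSMB7 alone. The median of all 16 core genes was 0.11 and that of the 20 genes of the 19S particle and its chaperones 0.17, a difference of -0.06 for core minus 19S, smaller than the spread within either group (SD 0.40 and 0.35). Summed over genes, which gives weight to the most abundant ones, the log2 ratio was 0.36 for the ATPases and 0.30 for the beta subunits but -0.06 for the alpha subunits, where PSMA4 holds 16421 of 40201 IP reads and 20666 of 42407 Input reads. Genes of 1 group are not replicates, and no test of these differences was made.

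Levels were compared between genes only per length, as CPM per kilobase of merged exons. This length pools the exons of all annotated isoforms and so understates genes with many long isoforms. In Input the highest levels were 179 for PSMA7, 166 for PSMD7, 144 for PSMD4, 132 for PSMD2 and 121 for PSMA4, and the lowest among constitutive core genes were 6.51 for PSMB2 and 7.73 for PSMA1. By group the median level in Input was 132 for the non-ATPase base subunits, 55.2 for the ATPases, 37.0 for the beta subunits, 32.3 for the alpha subunits, 28.8 for the lid and 22.7 for the regulators. The chaperones were lower, at 8.53 for those of the core and 6.56 for those of the base. PSMA7 and PSMA1, whose proteins are equal in number in the core, thus stood far apart in reads per length. The value for PSMA1 is uncertain, since 24.7% of its exon bases lie in a gene on its own strand with 541 and 558 reads. For PSMA7 that share is 0%. In the IP the order near the top differed, with PSMA7 at 232, PSMD4 at 181, PSMD2 at 175, PSMD7 at 171 and PSMC3 at 156. Across the 45 genes, log2 CPM (not per length) in the IP and in Input correlated with Pearson's r at 0.983 and Spearman's rho at 0.974, a description over genes of the same libraries.

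**Figure D2:**
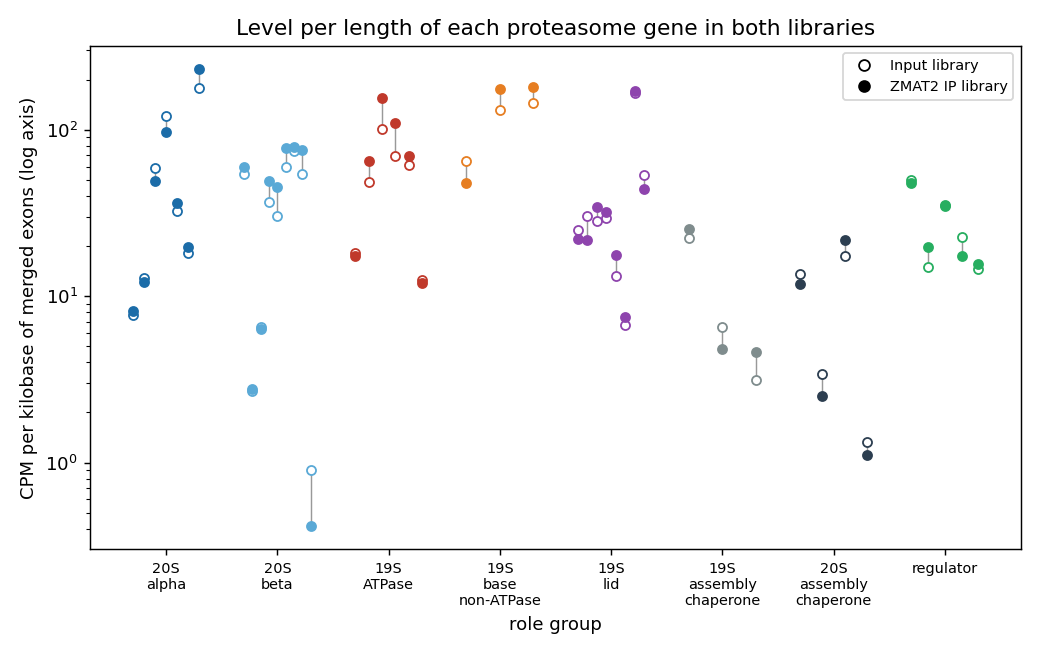
CPM per kilobase of merged exons (log axis) of each proteasome gene in Input (open circles) and in the ZMAT2 IP (filled circles), 1 library each, with genes side by side within 8 role groups and a line joining both values of a gene. The lines are short against the spread between genes, which runs from 0.901 for PSMB8 to 179 for PSMA7 in Input.

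Other genes of the ubiquitin and proteasome pathway gave a wider spread around a lower centre. Of 51 such genes found, 50 had enough reads, with a median log2 ratio of -0.12 and an SD of 0.46, and 1 was called higher (2-fold; 7.41% of all genes) and none lower (6.96%). The called gene was MAFG, which encodes a small MAF protein that pairs with NFE2L1 and NFE2L2 on DNA, at 463 IP reads against 228 Input reads and 1.03 (0.80 to 1.27). MAFK, of the same kind, stood at 0.91 (0.59 to 1.24) with 230 and 123 reads. MAFF, also of this kind, was the lowest gene of the NFE2L1 list at -0.34. NFE2L1, the factor that raises subunit transcription when the proteasome is inhibited, had 6694 and 6384 reads and stood at 0.08, and NFE2L2 at -0.31. Subunits and assembly factors without a PSM name went both ways: the ubiquitin receptor gene ADRM1 had 3761 and 2576 reads and stood at 0.56 (0.49 to 0.63), the lid gene SEM1 (in the table as SHFM1) 3151 and 3963 reads and -0.32, and the core maturation factor POMP 1992 and 2909 reads and -0.53 (-0.62 to -0.45). Among the 6589 protein-coding genes with 1000 or more reads, 44.1% had an interval below 0, 261 were called higher and 172 lower. Of 7 genes for proteins that dock on the proteasome, not all of them enzymes, 5 had intervals below 0 and 2 above, with a median of -0.39. Among these, USP14 and UCHL5, deubiquitinases of the 19S particle, stood at -0.39 and -0.52 and UBE3A, a ligase, at -0.67, while the giant ligase UBR4 stood at 0.70 (0.66 to 0.74) and HUWE1 at 0.47. VCP, the unfoldase that hands substrates to the proteasome, stood at 0.65 (0.61 to 0.68) with 14425 and 9300 reads, its cofactor NPLOC4 stood at 0.78 and the cofactor UBXN7 at -0.74 (-0.82 to -0.65). Of the ubiquitin genes, UBB had 22626 and 21107 reads and a ratio of 0.11. The E1 enzymes that activate ubiquitin, UBA1 and UBA6, stood at 0.65 and -0.64. The shuttle receptor gene RAD23B, lowest of the receptor list, stood at -0.58, and ZFAND2B, the highest, at 0.61.

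The COP9 signalosome and the translation factor eIF3 are built like the lid, and the chaperonin CCT is another abundant ring of cytosolic subunits. The median log2 ratio was 0.09 for 10 COP9 genes with an SD of 0.43, 0.34 for 13 eIF3 genes with an SD of 0.50, and -0.10 for 8 CCT genes with an SD of 0.23. None of these genes was called at 2-fold, against 7.41% of all genes higher and 6.96% lower. Of the 6589 protein-coding genes with 1000 or more reads, 261 were called higher and 172 lower. COPS2 stood lowest in COP9 at -0.96 (-1.04 to -0.88) and COPS9 highest at 0.26. CCT genes ranged from -0.23 for CCT8 to 0.41 for CCT3, and in eIF3 the genes ranged from -0.63 for EIF3E to 0.85 for EIF3G. The proteasome median lay within the range of these 3 complexes, and whether it differs from any of them was not tested.

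**Figure D3:**
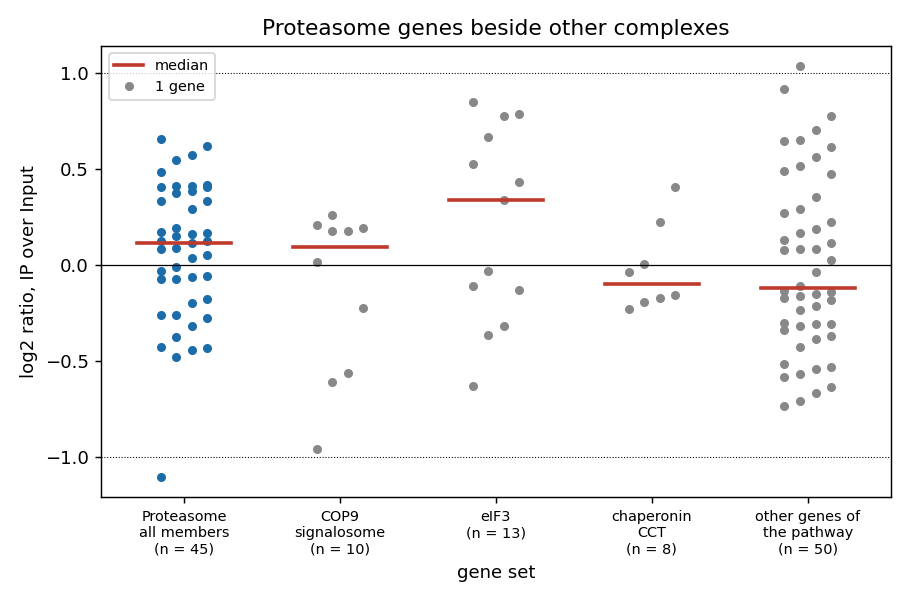
The log2 ratio of ZMAT2 IP over Input (y axis) of single genes (points) in the proteasome family (blue), 3 other complexes and 50 other genes of the pathway (grey), with the median of each set as a red bar and dotted lines at 2-fold. The proteasome median of 0.11 lies between those of eIF3 (0.34) and CCT (-0.10), and all sets overlap.

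The merged exons of the proteasome genes had a median length of 3582 bases, against 5067 for all protein-coding genes kept. Shorter genes tended to have higher ratios. Across the 45 genes the ratio had a Spearman rank correlation of -0.28 with exon length and -0.28 with gene span, and -0.35 and -0.32 among the 41 genes with 1000 or more reads. Over the 6589 protein-coding genes of that depth these correlations were -0.05 and -0.18. For the 8 proteasome genes under 2000 bases the median ratio was 0.35, where all 399 protein-coding genes of that length and at least 1000 reads had a median of 0.09. That minimum was not applied to the 8, which include PSMB10 with 245 reads. Beta genes among the 8 were PSMB3, PSMB5, PSMB6, PSMB7 and PSMB10. The beta group had a median length of 1853 bases, so length and role are not independent in the family. At 5000 to under 7000 bases the values were -0.04 for 10 proteasome genes and -0.05 for 1494 genes. These correlations are across genes of the same libraries and describe them, and the part of length in the ratios was not tested.

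**Figure D4:**
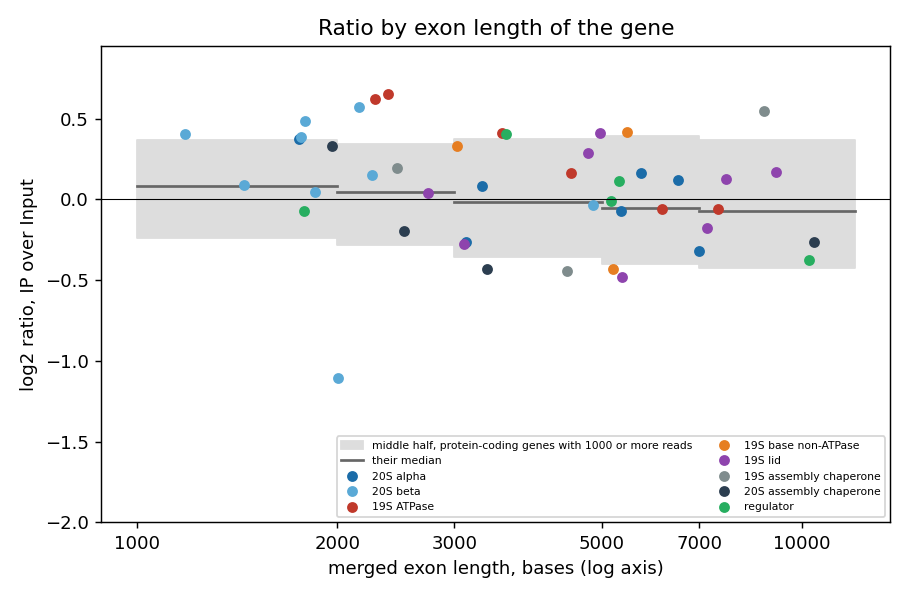
The log2 ratio of ZMAT2 IP over Input (y axis) against merged exon length (x axis, log scale) for the 45 proteasome genes, coloured by role, over the median (grey line) and range between quartiles (grey band) of protein-coding genes with 1000 or more reads in 5 length classes, the last drawn up to the right end. Of the genes under 3000 bases, PSMC4, PSMC3, PSMB4, PSMB7, PSMB3, PSMB5 and PSMA7 stand above the band, and PSMB8 far below it.

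Overlapping genes, antisense genes and pseudogene copies limit what single values mean. The library kit was stranded, but whether strand was used in counting is not given in the labels. Exons of other genes cover 5% or more of the exon bases in 17 of the 45 genes and none in 23. The 28 genes below that limit had a median log2 ratio of 0.15 and an SD of 0.34, and the 17 others a median of 0.04. Of the 28 overlaps with a neighbour, 21 were with a gene on the opposite strand. For PSMA6 14.1% of exon bases lie in a gene on its own strand with 3303 and 3140 reads, more than PSMA6 itself. Antisense genes with at least 20 reads were PSMA3-AS1, with 1048 and 1613 reads and a ratio of -0.61 (-0.72 to -0.50), PSMD5-AS1, with 341 and 428 and a ratio of -0.31, and PSMG3-AS1, with 332 and 183 and a ratio of 0.87 (0.61 to 1.14). Each of these 3 lay on the same side of 0 as the sense gene. Of the 2 with fewer reads, PSMD6-AS2, at 2 and 16 reads, stood at -2.71 (-6.15 to -0.90), on the other side from PSMD6, and PSMB8-AS1 had 2 and 1 reads and an interval that included 0. Of 31 pseudogenes named after proteasome genes, 11 had any read and 4 reached 20, with 95 IP reads and 111 Input reads over all of them, so few reads were assigned to the copies.

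The antioxidant response element is the promoter site that NFE2L1 binds with its MAF partners to raise proteasome gene transcription. RefSeq promoters (GRCh38.p14, from 250 bases before to 50 after the gene start) were matched by symbol for 39 of the 45 genes. The letters TGACNNNGC, on either strand, were found in 14 of them (35.9%), against 16.1% of the 27305 genes with a promoter and 17.9% of the 15843 protein-coding ones. The CCAAT box is bound by NF-Y, and its letters can overlap an end of the other motif. It was found as CCAAT on either strand in 18 (46.2%), against 39.7% of all genes and 42.1% of the protein-coding ones. Genes with the response element core had a median log2 ratio of -0.14 and those without 0.08, and their median levels in Input were 26.5 and 24.8 CPM per kilobase. For CCAAT the difference ran the other way, at 0.14 with it and -0.06 without, with Input levels of 36.1 and 18.1. Neither difference was tested. The carriers of the response element core lay at both ends of the ratios, from PSMD12 to PSMC4, and such a match is no evidence of binding. To show what the match looks like at both ends of the ratios, printed here are the 250 bases before the RefSeq start of PSMD12, with a low ratio, and of PSMD9, with a high one, 5′ to 3′ on the strand of the gene, with each match in capitals. The match lies 165 bases before the start in PSMD12 (chr17:67366578-67366827, minus strand), and 102 and 149 bases before it in PSMD9 (chr12:121888540-121888789, plus strand), the latter on the opposite strand.
PSMD12: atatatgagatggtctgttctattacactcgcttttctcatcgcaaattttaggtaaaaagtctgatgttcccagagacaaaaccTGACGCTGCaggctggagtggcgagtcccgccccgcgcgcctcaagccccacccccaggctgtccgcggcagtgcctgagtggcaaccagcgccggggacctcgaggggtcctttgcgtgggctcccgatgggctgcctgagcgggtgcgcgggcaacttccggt
PSMD9: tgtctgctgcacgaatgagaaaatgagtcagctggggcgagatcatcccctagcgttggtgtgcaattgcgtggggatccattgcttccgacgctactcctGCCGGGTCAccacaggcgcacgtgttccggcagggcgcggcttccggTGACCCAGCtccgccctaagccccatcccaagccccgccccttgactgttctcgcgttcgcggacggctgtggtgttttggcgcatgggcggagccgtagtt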

How the data were processed

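Per the file headers, the deposited table gives raw read counts of each gene in 1 column for each library, beside exon positions and a length. The build was GRCh38, and the submitters' processing notes name STAR 2.5.3a, fastp 0.23.4 and edgeR 3.12.1. How reads were assigned to genes, and with which annotation, is not given in the sources. Among genes with 1 to 6 reads, 77.9% of IP and 67.1% of Input counts were even, so mates appear to have been counted separately.

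The 17915 genes whose 2 counts summed to 20 or more were kept and scaled by TMM in edgeR 4.0.16 (R 4.3.3). The log2 ratio used a prior count of 0.5. With 1 library per group no test was possible and no p-value is given. The interval and call steps were tested on simulated data. Alternatives were library totals, DESeq2 1.42.0 size factors, a prior count of 5, minimums of 1, 100 and 1000 reads, read pairs, a 1.5-fold limit, genes with under 5% shared exon bases, and other memberships. Shared exon bases were computed on either strand from the deposited coordinates. Every kept member is named, and other pathway genes are named when called, among the most read, or at the ends of a list, with a few added after their values were seen. Role groups follow textbook structure. The members and lists were chosen with earlier results of these data known. Counting error limits the precision, and genes under 100 reads are weakly measured.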

Additional observations from a re-analysis of the deposited data

How the results depend on the processing

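No paired analysis was possible because each group held 1 library. Over 14 results, 94 of 125 alternative values moved by less than counting error and 31 by more (for a count of calls, by over 1.5 times). Counting error here is the reach of the interval to either side, for a median that of the gene nearest to it. DESeq2 size factors, a prior count of 5 and read pairs moved no median by more than that. The count of genes called higher was 0 and became 2 at 1.5-fold. The count called lower was 1, PSMB8, and became 0 with a prior count of 5, on read pairs, at minimums of 100 and 1000 reads, for genes with little shared exon sequence and, in a setting added after seeing the data, without PSMB8. With library totals the median was 0.0072 for all members, 0.042 for beta, 0.18 for ATPases, -0.025 for the lid, 0.23 for other base subunits and -0.12 for regulators, and the summed ratio was 0.0098. With little shared exon sequence these medians were 0.21 for all members, 0.43 for beta, 0.57 for ATPases, -0.026 for the lid, 0.42 for other base subunits, -0.076 for base chaperones and 0.12 for core chaperones, and the summed ratio was 0.21. The beta median was 0.25 and 0.39 at minimums of 100 and 1000 reads and 0.38 for PSMB1 to PSMB7 alone. The lid median was 0.15 over all PSMD genes, and the core chaperone median 0.070 at 1000 reads. The SD was 0.60 with no minimum, where PSMB9 and PSMB11 enter with 2 reads each. The summed ratio was 0.13 with no minimum, 0.10 at 100 reads and 0.13 for the structural subunits alone. The overlap limit changed both the genes and the scaling: TMM was estimated again, which moved each of the 28 genes up by 0.051, and at the scaling used elsewhere their median was 0.15. The read minimums likewise changed both, memberships the genes alone and library totals the scaling alone. Depth limits PSMB8, PSMB10 and PSMG2 most.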
